A study of Mus musculus with 12 samples.

Results

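Trim2, Ubash3b, Gm20203, Gm26141 and Gm47319 are the genes assigned to the 5 sites with the largest gain of H4K8ac, acetylation of histone H4 at lysine 8, in adult over neonatal mouse oligodendrocyte progenitor cells (OPCs). They are 5 of 23459 genes named in the peak lists of the series. The members were thus chosen from the adult against neonatal contrast, and every value of that contrast at these loci is given as a description, with no test. Each locus was taken as the gene with 50 kb on each side, and all peaks in that window were kept whatever gene they were assigned to. The 5 windows held 556 of the 269580 deposited peaks, of which 299 were assigned to a member by name.

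OPCs were sorted from the forebrain of PdgfrαH2BEGFP mice, in which a green fluorescent histone marks cells that express Pdgfra, and both ages carried this reporter. The neonatal group was taken at postnatal day 5 and the adult group at postnatal day 60, with 3 H4K8ac libraries each, labelled as biological replicates. Whether each came from 1 animal or from pooled animals is not given in the sources used here. Values of the 3 libraries of an age are given in the order of their replicate numbers unless named. The 6 input libraries were not analysed here. Pdgfra is also active in other cells, such as fibroblasts, so the reporter alone does not define an OPC.

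Histone acetylation at promoters and enhancers accompanies open chromatin and transcription, and H4K8ac is one of several marks laid on the tail of histone H4 by acetyltransferases and read by bromodomain proteins. OPCs persist from the perinatal brain into adulthood, where they divide more slowly and keep the ability to make oligodendrocytes. Trim2 is an E3 ubiquitin ligase of the TRIM-NHL family, known for binding the light neurofilament chain in neurons. Ubash3b is a phosphatase with ubiquitin-binding and SH3 domains that dampens tyrosine kinase signalling. The 3 Gm genes are predicted loci without a described function. They name the nearest annotated start, and 3 protein-coding genes lie at or beside their sites: Lpgat1 (a lysophosphatidylglycerol acyltransferase), Ppp1r16b (a regulatory subunit of protein phosphatase 1) and Endod1 (a protein with an endonuclease domain).

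The lists held 9097, 31189 and 7353 peaks in the neonatal libraries and 72278, 72661 and 77002 in the adult libraries, so adult lists were longer over the genome as a whole. Of 6 OPC markers, 5 or 6 had a promoter peak in each library. Of 6 markers of myelinating oligodendrocytes, 1, 2 and 1 had one in the neonatal libraries and all 6 in each adult library. Of 6 microglial markers, none had one in a neonatal library and 1 in each adult library, with Csf1r, Aif1, P2ry12, Tmem119 and C1qa at 0 throughout. Endothelial markers numbered 0 in neonatal and 2 of 6 in adult libraries, neuronal markers 0 to 3 and 3 to 4 of 6, and astrocyte markers 0 to 4 and 2 to 4 of 6. The share of all genes with a promoter peak in each library is not given here. As the adult lists were longer, these counts are not read as a change in cell types. The part that myelinating, microglial, endothelial, neuronal or astrocyte cells had in the values below was not tested. In these bulk libraries, more cells with a marked locus and more mark per cell cannot be told apart.

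The promoters of Trim2 and Ubash3b show where the loci differed between the ages, and 4 of them are printed as examples. RefSeq (GRCm38.p6) promoter windows matched 2 of the 5 members, with 5 start sites for Trim2 and 2 for Ubash3b. Each sequence below is the 250 bases before a start site, 5′ to 3′ on the minus strand, on which both genes lie. Capitals mark matches, on either strand, to ACAAAG (SOX), CAGCTG and CATATG (E-boxes), TGANTCA (AP-1), GGAATG (TEAD), CCGGAA (ETS), TTGGCA (NFI) or GGGCGG (SP), and overlapping matches were all counted. Coverage of each promoter is given over 300 bases, the 250 printed and the 50 that follow. The first (chr3:84270784-84271033, Trim2) was covered over all 300 bases in each adult library and over 0 in each neonatal library. The second (chr3:84220878-84221127, Trim2) was covered over 150 bases in neonatal replicate 2, 0 in the other 2 neonatal libraries, and 0, 221 and 300 in the adult libraries. The third (chr3:84259780-84260029, Trim2) was covered over 143 bases in neonatal replicate 2, 0 in the other 2 neonatal libraries, and 300, 141 and 122 in the adult libraries. The fourth (chr9:41158063-41158312, Ubash3b) was covered over all 300 bases in each adult library and 0 in each neonatal library, whose peaks lay downstream of it. The Trim2 promoter at the start at 84304775, not printed, also differed: 300, 159 and 300 bases in the adult libraries and 0 in each neonatal library. It held NFI and SP matches.
Trim2, start at 84270783: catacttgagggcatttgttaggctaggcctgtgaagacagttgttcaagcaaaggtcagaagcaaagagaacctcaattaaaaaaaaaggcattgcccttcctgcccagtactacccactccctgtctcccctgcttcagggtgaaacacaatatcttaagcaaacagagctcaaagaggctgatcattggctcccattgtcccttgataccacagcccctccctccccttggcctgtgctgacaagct
Trim2, start at 84220877: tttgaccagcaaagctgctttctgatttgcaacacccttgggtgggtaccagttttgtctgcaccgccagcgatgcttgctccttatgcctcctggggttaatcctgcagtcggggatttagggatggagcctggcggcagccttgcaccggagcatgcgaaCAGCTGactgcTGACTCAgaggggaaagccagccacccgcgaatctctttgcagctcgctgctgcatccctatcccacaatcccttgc
Trim2, start at 84259779: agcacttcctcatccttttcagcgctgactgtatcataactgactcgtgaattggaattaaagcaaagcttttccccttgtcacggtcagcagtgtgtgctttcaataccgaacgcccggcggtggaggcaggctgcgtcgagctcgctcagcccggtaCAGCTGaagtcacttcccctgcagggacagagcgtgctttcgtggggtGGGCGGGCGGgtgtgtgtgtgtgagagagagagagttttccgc
Ubash3b, start at 41158062: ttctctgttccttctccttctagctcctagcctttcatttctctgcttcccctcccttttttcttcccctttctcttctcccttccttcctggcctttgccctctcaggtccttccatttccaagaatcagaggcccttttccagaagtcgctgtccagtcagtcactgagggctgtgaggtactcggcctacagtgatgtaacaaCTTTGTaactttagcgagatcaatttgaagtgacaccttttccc

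The Trim2 start at 84270783, covered in adult libraries alone, had no CpG in these 250 bases, a GC content of 49.2% and no match to any of the 8 motifs. The Trim2 start at 84220877 had 9 CpGs and 57.2% GC, with CAGCTG at position -88 and an AP-1 match at position -77, both counted to the first base of the match from the start. The Trim2 start at 84259779 had 16 CpGs and 56.4% GC, with CAGCTG at position -91 and 2 overlapping SP matches at -43 and -39. The Ubash3b start at 41158062 had 3 CpGs and 48.4% GC, with a SOX match on the opposite strand at position -44. Over 32817 RefSeq promoter windows of this length, the median was 6 CpGs and 52.4% GC. Among those windows 16.5% held ACAAAG, 13.0% CAGCTG, 3.47% CATATG, 6.75% TGANTCA, 12.6% GGAATG, 12.02% CCGGAA, 12.3% TTGGCA and 32.7% GGGCGG. These matches are descriptions of the letters only.

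H4K8ac at Trim2 (ENSMUSG00000027993.16, chromosome 3, 84160439 to 84306877, minus strand) was spread over several start sites and the first intron in adult cells and was sparse in neonatal cells. In the 246 kb window, peaks covered 0.247, 2.24 and 0 kb in the neonatal libraries. They covered 22.9, 23.7 and 33.6 kb in the adult libraries. The ages did not overlap, and the lowest adult library had many times the coverage of the highest neonatal one. Adult coverage was 10.8% ± 2.42 of the window (SD, n = 3) and neonatal coverage 0.337% ± 0.499 (SD, n = 3), a difference of 10.5 percentage points.

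The number of peaks in the Trim2 window was 1, 8 and 0 in the neonatal and 39, 31 and 38 in the adult libraries. Of these, 37, 28 and 34 adult peaks were assigned to Trim2 itself, so most of the mark lay in or next to the gene. By class, the adult libraries had 12 promoter peaks each and 21, 14 and 19 intron peaks assigned to Trim2. The single peak of neonatal replicate 1 and 5 of the 7 Trim2 peaks of neonatal replicate 2 were promoter peaks.

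The start sites of Trim2 differed in how far they parted by age. Within 1 kb of the start at position 84270783, here called the adult-marked start, peaks covered 2001 bp, the whole stretch, in each adult library and 0 in each neonatal library. Within 1 kb of the start at position 84304775, the farthest upstream of the 5, the covered length was 1315, 1312 and 1592 bp in the adult libraries and 488 bp in neonatal replicate 2, with 0 in the other 2 neonatal libraries. The same distance around the start at position 84259779 gave 1259, 1216 and 1463 bp in the adult libraries and 488 bp in neonatal replicate 2. The start at position 84220877 went the other way in part: neonatal replicates 1 and 2 had 247 and 457 bp, whereas adult replicate 1 had 0 and adult replicates 2 and 3 had 529 and 1037 bp. At the start at position 84212838 only adult replicate 3 had a peak within 1 kb, over 673 bp. The adult-marked start also held the widest Trim2 peak of each adult library, at 3.33, 3.55 and 4.67 kb.

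The site that chose Trim2 (chromosome 3, 84289316 to 84289715) lies in intron 1 of 11 of a listed transcript, between the farthest upstream start and the adult-marked start. In the authors' deposited table it had a log2 fold change of 8.10 (adjusted p = 9.36e-12). The adult peaks over it had folds of 11.98, 8.87 and 11.7 over background, as the authors gave them, and widths of 1.85, 2.00 and 1.95 kb. No neonatal library had a peak there. The nearest neonatal peak was 2.18 kb away in replicate 2, 68.6 kb in replicate 1 and 499 kb in replicate 3. Ranked by p-value, the adult peaks stood at the top 7.96%, 11.0% and 7.60% of their lists.

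**Figure D1:**
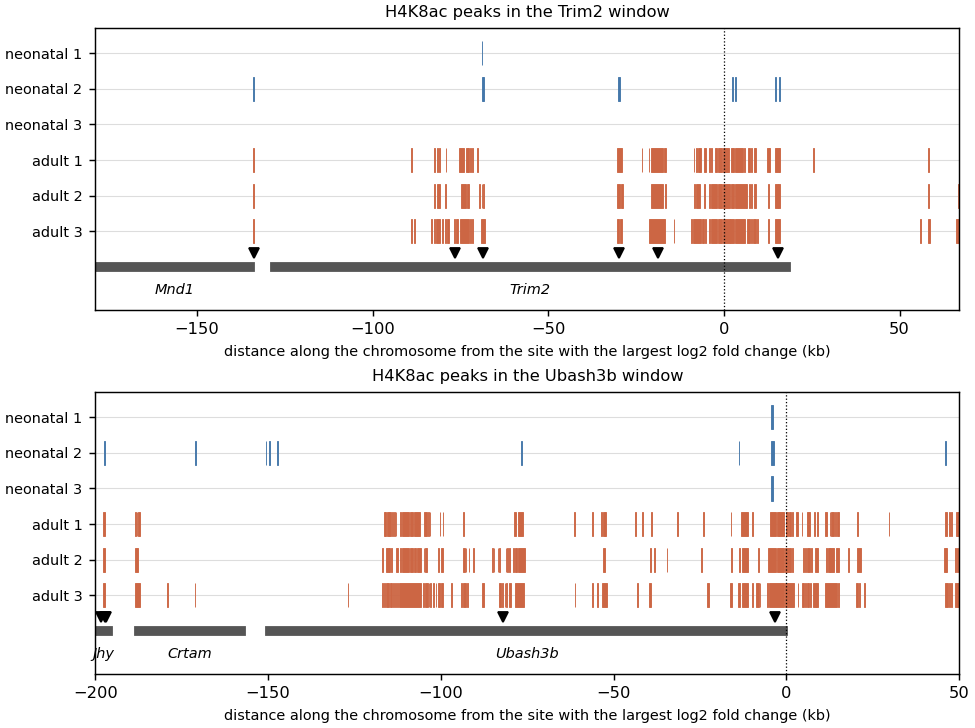
Peaks of each library (rows, neonatal in blue and adult in orange) along the Trim2 and Ubash3b windows; the x axis is the distance in kb from the site with the largest log2 fold change (dotted line), grey bars are RefSeq gene bodies, triangles are RefSeq start sites, and very narrow peaks are drawn at a minimum line width. Adult peaks cluster in the first Trim2 intron and in 2 parts of Ubash3b, while all 3 neonatal libraries share only the peak just downstream of the main Ubash3b start.

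H4K8ac at Ubash3b (ENSMUSG00000032020.15, chromosome 9, 41011098 to 41161697, minus strand) was present next to its main start at both ages. In adult cells it also lay over that start, over parts of the gene and upstream of it. The RefSeq gene body was covered over 0.375%, 1.13% and 0.286% in the neonatal libraries and 13.9%, 15.9% and 21.6% in the adult libraries. In the 251 kb window, peaks covered 0.566, 2.78 and 0.432 kb in the neonatal libraries and 30.7, 35.0 and 47.8 kb in the adult libraries. The ages did not overlap. Adult coverage was 15.1% ± 3.55 of the window (SD, n = 3) and neonatal coverage 0.503% ± 0.526 (SD, n = 3), which is 14.6 percentage points apart. The window held 1, 9 and 1 neonatal and 58, 59 and 64 adult peaks.

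The main Ubash3b start (position 41158062) lay under a peak in the 3 adult libraries and in no neonatal library, where the peaks ended downstream of it, at 41157489, 41157736 and 41157535. Within 1 kb of it, peaks covered 428, 675 and 432 bp in the neonatal and 1802, 1739 and 2001 bp in the adult libraries. In all 3 neonatal lists the strongest peak of the window by p-value was this one, with folds of 5.50, 9.42 and 5.13. It was also the strongest of the window in each adult list, with folds of 15.0, 13.7 and 16.1. In the authors' deposited table the site there (chromosome 9, 41157213 to 41157612) had a log2 fold change of 1.56 (adjusted p = 0.000727), below the median of 2.42 over all positive sites. A second RefSeq start inside the gene (position 41079506) had no neonatal peak within 1 kb, none in adult replicate 1, and 247 and 891 bp in adult replicates 2 and 3. At the 3′ end of Ubash3b, neonatal replicate 2 alone had 3 peaks, at 41010785 to 41010943, 41011613 to 41011874 and 41014117 to 41014285. No adult peak and no peak of neonatal replicates 1 and 3 lay over them. Of all neonatal coverage in the window, 76.4% lay under a peak of at least 1 adult library.

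The site that chose Ubash3b (chromosome 9, 41161240 to 41161639) lies upstream of that main start, just inside the outermost listed start of the gene. RefSeq places it inside the outer limits of Ubash3b and of Gm35657, a long non-coding RNA gene. In the authors' deposited table it had a log2 fold change of 8.08 (adjusted p = 9.03e-12). The adult peaks over it had folds of 10.8, 10.5 and 12.5, and the nearest neonatal peaks, 3.75, 3.50 and 3.70 kb away, were those at the main promoter. Within one promoter region, the 2 sites thus had log2 fold changes of 8.08 and 1.56 in the authors' deposited table.

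Peaks inside the Ubash3b gene formed a second cluster in adult cells. In adult replicate 3 the widest peak of the window spanned 6.57 kb (chromosome 9, 41049263 to 41055827, annotated as 5′ untranslated region) and ranked 415 of 77002 by width. The site at chromosome 9, 41053829 to 41054228 under this cluster had a log2 fold change of 4.09 (adjusted p = 1.09e-11) in the authors' deposited table. Upstream, the long non-coding RNA gene 1700063D05Rik was assigned 1 peak in neonatal replicate 2 and 6, 7 and 7 in the adult libraries within the window. Crtam, a T cell surface receptor gene beyond the end of Ubash3b, had 0.950, 0.864 and 1.99 kb covered in the adult libraries and 0.303 kb in neonatal replicate 2. Jhy, a gene tied to cilia and hydrocephalus, had 1.09, 0.970 and 1.21 kb over its whole body in the adult libraries and 0.453 kb in neonatal replicate 2.

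Gm20203 (ENSMUSG00000102596.1, chromosome 1, 191790983 to 191791314, minus strand) gave the largest log2 fold change, in a stretch between Lpgat1 and Nek2. RefSeq lists it as a pseudogene. In the 100 kb window, peaks covered 0, 0.142 and 0 kb in the neonatal libraries and 21.9, 26.6 and 33.2 kb in the adult libraries. The single neonatal peak lay just before the start of Nek2, which encodes a centrosomal kinase. Adult coverage was 27.1% ± 5.62 of the window (SD, n = 3).

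The site itself (chromosome 1, 191788394 to 191788793) lies 4.14 kb beyond the 3′ end of Lpgat1. It had a log2 fold change of 8.40 (adjusted p = 1.24e-12) in the authors' deposited table, and adult folds of 14.1, 12.3 and 13.3. The Lpgat1 body (chromosome 1, 191717554 to 191784255) was covered over 1.38, 1.41 and 1.03 kb in the neonatal libraries and 8.51, 11.3 and 16.6 kb in the adult libraries. All neonatal coverage of Lpgat1 lay within 1 kb of its RefSeq start at position 191718395, where each adult library was covered over the full 2001 bp. Nek2 itself showed little: its body had 0.408 kb in adult replicate 1 and 0 in the other 5 libraries. Towards Nek2, the sites at 191815983 to 191816382 and 191817994 to 191818393 had log2 fold changes of 7.05 and 6.94 in the authors' deposited table (adjusted p = 4.64e-09 and 6.40e-09).

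Gm26141 (ENSMUSG00000093040.1, chromosome 2, 158740138 to 158740263, plus strand) lies inside Ppp1r16b, and its window carried the broadest adult mark of the 5. Peaks covered 0, 0.400 and 0 kb of 100 kb in the neonatal libraries and 43.4, 47.3 and 54.0 kb in the adult libraries. That is 48.2% ± 5.34 of the window in adult libraries (SD, n = 3). In adult replicate 3 a single peak spanned 24.7 kb (chromosome 2, 158711812 to 158736480), the number 3 by width among 77002 peaks. In adult replicate 2 the widest peak was 9.65 kb, number 17 of 72661, and in adult replicate 1 it was 4.37 kb, number 297 of 72278.

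The body of Ppp1r16b (chromosome 2, 158666733 to 158766334) was covered over 49.8%, 56.4% and 67.5% in the adult libraries and over 0.853%, 2.73% and 0.792% in the neonatal libraries. Within 1 kb of the Ppp1r16b start at position 158667135, peaks covered 405, 922 and 789 bp in the neonatal and 1821, 1795 and 1816 bp in the adult libraries. The site that chose Gm26141 (chromosome 2, 158750874 to 158751273) is annotated in exon 7 of 11 of a Ppp1r16b transcript, under a peak whose near edge lies 9491 bp downstream of the Gm26141 start. It had a log2 fold change of 8.27 (adjusted p = 3.40e-12) in the authors' deposited table and adult folds of 9.23, 12.5 and 13.5. The Ppp1r16b body held 26 listed sites, all higher in adult cells as were 99.4% of all listed sites, with a median log2 fold change of 3.44 in the authors' deposited table. The neighbour Fam83d, a mitotic spindle gene, had 0.769 kb covered in adult replicate 1 and 0 in the other 5 libraries.

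Gm47319 (ENSMUSG00000111786.1, chromosome 9, 14385692 to 14389723, plus strand) lies upstream of Endod1, which is transcribed in the opposite direction. In its 104 kb window, peaks covered 0.455, 1.09 and 0.354 kb in the neonatal libraries and 12.6, 13.9 and 19.0 kb in the adult libraries. Each neonatal library had 1 peak, and in all 3 it was the Endod1 promoter. Adult libraries had 14, 11 and 17 peaks, with coverage of 14.6% ± 3.22 (SD, n = 3).

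The Endod1 promoter was also the strongest peak of the window by p-value in each adult library, with folds of 25.3, 20.4 and 13.2 against 4.54, 6.36 and 5.22 in the neonatal libraries. The site that chose Gm47319 (chromosome 9, 14388218 to 14388617) lies 6.98 kb beyond that end of the Endod1 body. It had a log2 fold change of 8.16 (adjusted p = 5.23e-12) in the authors' deposited table, against 1.90 (adjusted p = 4.80e-05) at the Endod1 promoter site. Adult folds over it were 12.3, 10.6 and 12.6. As at Ubash3b, a promoter region with peaks at both ages stood beside an upstream site with adult peaks only.

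**Figure D2:**
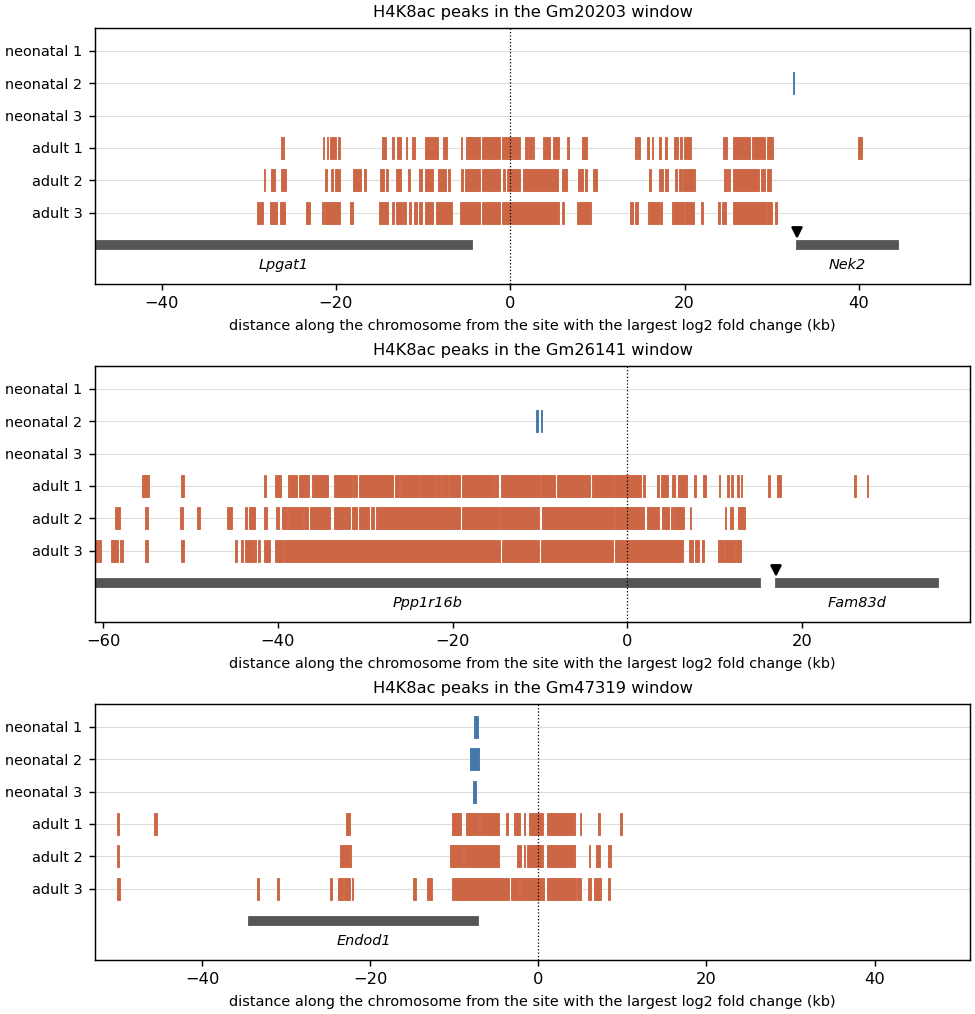
Peaks of each library (rows, neonatal in blue and adult in orange) along the Gm20203, Gm26141 and Gm47319 windows; the x axis is the distance in kb from the site with the largest log2 fold change (dotted line), and grey bars and triangles are RefSeq gene bodies and start sites. Adult peaks fill much of Ppp1r16b, lie between Lpgat1 and Nek2, and flank the Endod1 promoter, which all 3 neonatal libraries also mark.

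Set side by side over the full lists, adult coverage was highest at Gm26141, followed by Gm20203, then Ubash3b, Gm47319 and Trim2 with adult ranges of 12.2 to 19.1%, 12.1 to 18.3% and 9.29 to 13.6%. The ranges of the last 3 overlapped. Within each adult library, however, Ubash3b lay above Gm47319 and Gm47319 above Trim2. The lowest Gm26141 library (43.3%) lay above the highest Gm20203 library (33.0%), and the lowest of Gm20203 (21.9%) above all of the other 3. The windows of the 3 short Gm genes are about 100 kb and those of Trim2 and Ubash3b about 250 kb, so percentages depend on how much flanking sequence each holds. Adult replicate 3 had the highest coverage and adult replicate 1 the lowest in all 5 windows. Adult replicate 3 also covered the most of the genome, 60.9 Mb against 41.9 and 44.3 Mb.

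Coverage did not overlap between the ages in 5 of 5 windows, all with adult libraries higher, a pattern found in 78.5% of 23459 gene windows, and since the rule used this contrast nothing is read from the count. The median gene window was covered over 0.195%, 1.13% and 0.157% in the neonatal libraries and 2.63%, 2.64% and 3.58% in the adult libraries. Trim2 stood at 3.54, 3.63 and 3.81 times that median in the adult libraries and Gm26141 at 16.5, 17.9 and 15.1 times. In the neonatal libraries Trim2 stood at 0.515, 0.807 and 0 times the median and Ubash3b at 1.16, 0.985 and 1.10 times. Among all gene windows, adult mean coverage placed Trim2, Ubash3b, Gm20203, Gm26141 and Gm47319 at the 86.1, 92.2, 98.3, 99.9 and 91.7 percentile. Their neonatal means stood at the 36.9, 48.8, 12.4, 20.9 and 55.5 percentile.

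**Figure D3:**
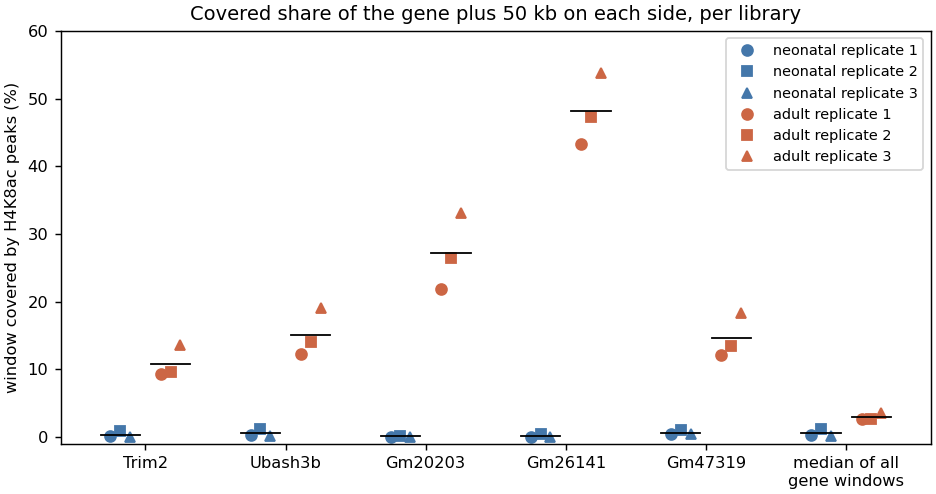
Share of each window covered by H4K8ac peaks (y axis, percent) in every library, with neonatal libraries in blue, adult libraries in orange and a line at the mean of 3 libraries; the last column is the median over all 23459 gene windows. Adult libraries lie between 9.29% and 53.9% in the 5 windows and neonatal libraries at or below 1.11%.

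To set lists of equal length side by side, the 7353 strongest peaks of each library, the length of the shortest list, were kept. Trim2, Gm20203 and Gm26141 then had no neonatal peak at all, and each neonatal library kept its peak next to the main Ubash3b start and its Endod1 promoter peak in the Gm47319 window. Trim2 had 3, 3 and 5 peaks over 6.44, 7.58 and 11.9 kb in the adult libraries. Ubash3b had 5, 4 and 3 peaks over 6.58, 6.83 and 13.5 kb, and Gm26141 had 4, 5 and 4 peaks over 14.1, 29.8 and 44.9 kb. Coverage again did not overlap, with adult libraries higher, in 5 of 5 windows. The share over all gene windows was 37.2%, and since the same contrast chose the 5 windows nothing is read from this count either. The order of the windows changed: Gm47319 was covered over 6.43%, 8.96% and 9.22% in the adult libraries and Gm20203 over 4.05%, 5.38% and 10.9%, so these overlapped. The chosen site was covered in 3 adult libraries at Ubash3b, Gm20203 and Gm47319, and in 2 at Trim2 (not replicate 2) and Gm26141 (not replicate 1).

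The authors' deposited table lists 102 sites in the 5 windows. All 102 were higher in adult cells and 0 lower, near the 99.4% of all listed sites that were higher. Of the 54838 sites tested, 79.6% were called higher and 0.463% lower. By window, Trim2 had 22 sites with a median log2 fold change of 3.29, Ubash3b 32 with 2.99, Gm20203 24 with 4.63, Gm26141 15 with 4.03 and Gm47319 9 with 3.87, against 2.42 over all positive sites in the authors' deposited table. Values above 4 were held by 7, 8, 14, 8 and 4 of these sites, and by 15.3% of all sites in the authors' deposited table. No neonatal library had a peak at 95 of the 102 (93.1%), against 71.7% of all listed sites, and nothing is read from this since the contrast chose the windows. The 5 chosen sites were not isolated: the next largest value of each window in the authors' deposited table was 6.81 at Trim2, 5.46 at Ubash3b, 7.05 at Gm20203, 5.56 at Gm26141 and 6.34 at Gm47319.

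**Figure D4:**
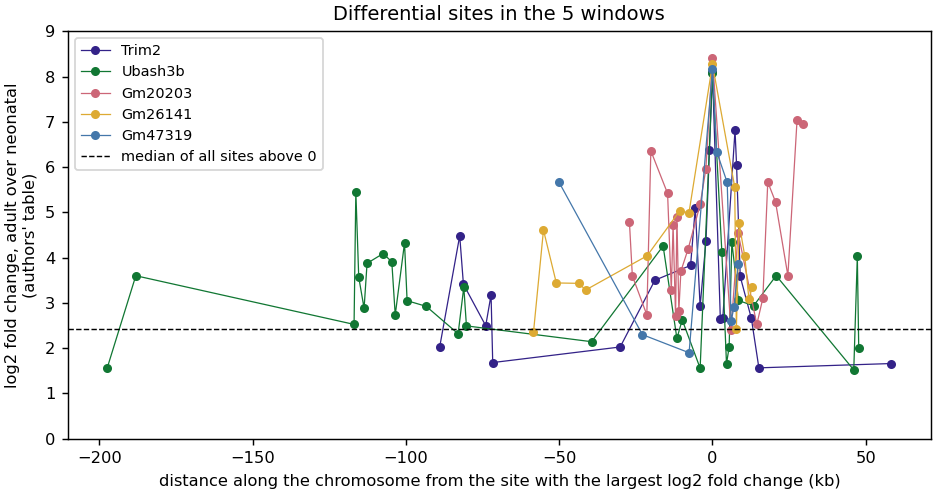
Log2 fold change (y axis, adult over neonatal, from the authors' deposited table) of each listed site in the 5 windows against its distance in kb from the chosen site (x axis); the dashed line is the median of all positive sites. All 102 sites lie above 0, and the chosen sites, at 8.08 to 8.40, rise from neighbours that reach 5.46 to 7.05.

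The 5 chosen sites shared a peak in 3 adult and 0 neonatal libraries, and each was covered over its whole 400 bp in each adult library. That pattern held for 20.4% of all merged peak regions, which are a different unit from the listed sites. Of all listed sites, 71.7% had no neonatal peak. The 5 chosen sites were picked for their adult gain, so nothing is read from the pattern. Ranked by p-value in place of fold change, they stood at number 237 (Gm20203), 291 (Gm26141), 321 (Gm47319), 356 (Trim2) and 353 (Ubash3b) of 43888 sites in the authors' deposited table. RefSeq places 3 of them inside a protein-coding gene and the other 2 within 10 kb of one. Of all positive sites, 70.0% lay inside a protein-coding gene and 81.4% within 10 kb. Just outside the choice, the authors' deposited table held at numbers 6 to 10, ranked by log2 fold change, sites assigned to Macf1 (8.03), Gnao1 (8.02), Kif6 (8.01), Slc4a5 (8.01) and Inpp5j (7.99), against 8.08 at Ubash3b just inside. Macf1 encodes a cytoskeletal crosslinker, Gnao1 a G protein subunit, Kif6 a kinesin, Slc4a5 a bicarbonate transporter and Inpp5j an inositol phosphatase. Those 5 sites too had a peak in 3 adult and 0 neonatal libraries.

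Relatives and partners of the 2 named proteins were described from a list of 11 genes. Of the 11, the authors' deposited table gave 5 a promoter site higher in adult cells, 0 one that was lower and 6 none. Nefl, Syk and Ubash3a were not named in any list, so the share among named genes was 5 of 8, where 51.0% of all named genes had a promoter site that was higher. The median over those 5 was 2.73, against 1.77 over 12069 genes with a promoter site in the authors' deposited table. Among TRIM-NHL ligases, Trim3 had a log2 fold change of 5.19 (adjusted p = 1.12e-05) and Trim32 of 2.73 (adjusted p = 4.54e-05) in the authors' deposited table. Trim71 had a single site outside promoters, with 3.48 (adjusted p = 0.000394) in the authors' deposited table, and no promoter peak in any library.

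Bcl2l11, which encodes the cell death protein Bim, a described Trim2 substrate, had 2.53 (adjusted p = 2.44e-07) in the authors' deposited table. Among genes tied to UBASH3 proteins, the ubiquitin ligases Cbl and Cblb had 3.32 (adjusted p = 1.45e-05) and 1.49 (adjusted p = 0.00146) in the authors' deposited table. Promoter peaks were present in 0 neonatal and 3 adult libraries at Cbl and in 3 and 3 at Cblb. Ubash3a, the T cell relative of Ubash3b, the kinases Syk and Zap70 and the receptor Egfr had no listed site. Egfr had a promoter peak in 1 neonatal and 0 adult libraries, and Ubash3a, Syk and Zap70 in none.

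The genes whose coverage over the 6 libraries was most like that of Trim2 were Lrrc8c, an anion channel subunit gene, Psat1, of serine synthesis, and Chmp7, of the ESCRT-III complex. Their Euclidean distances from Trim2 in percent of the window covered were 0.432, 0.492 and 0.532, among 23436 genes compared. Lrrc8c was covered over 0.379%, 0.675% and 0% in the neonatal and 9.12%, 9.73% and 13.7% in the adult libraries, beside 0.100%, 0.909% and 0% and 9.29%, 9.60% and 13.6% at Trim2. For Ubash3b the nearest were Zfp536, a zinc finger gene, Gm34599 and Ppp1r13b, an apoptosis regulator gene, at distances of 0.373, 0.689 and 0.735. These distances are over 6 libraries whose lists differ in length in the same way for every gene.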

How the data were processed

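H4K8ac ChIP-seq peak lists, 1 for each of 3 neonatal and 3 adult libraries, were analysed. The submitters' processing notes name Trim Galore, Bowtie2 2.4.5, SAMtools, deepTools, MACS2, DiffBind, ChIPseeker and GRCm38, without roles or parameters. Each deposited peak carries, per the file headers, a score, an annotation, a fold enrichment over background (a ratio) and the −log10 of both its p and its q. For each site the authors deposited, in a table without a header, a log2 fold change beside a raw and an adjusted p-value. Its positive sites overlapped adult peaks in 85.0% to 96.7% and neonatal peaks in 10.3% to 27.8%, so positive was read as higher in adult cells. Its p-values give 54838 tested sites (within 1 for 88.5% of sites). Class and gene of a site were those of the peak that shared most bases with it, and a peak counted as present at 1 bp of overlap.

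Peak depth in reads is unknown. Coverage was computed with Python 3.11.15, numpy 2.4.6 and pandas 2.3.3 from merged peaks in the gene plus 50 kb, and checked on simulated intervals. Gene limits are the outer limits of the transcripts in the lists. Starts in the files were taken as counted from 0 and are printed from 1. Named genes were the members, annotated neighbours, 11 family and partner genes, the sites numbered 6 to 10 and the 3 genes most alike. Neighbours are named where a result turns on them. The members and lists were chosen with earlier results of these data known. Alternatives are given in the closing section. The inputs were not used. The sequences of the chosen sites were not used here.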

Additional observations from a re-analysis of the deposited data

How the results depend on the processing

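The adult minus neonatal difference in covered share kept its direction in all 5 windows under each alternative run. The same contrast chose the windows, so nothing is read from this direction. Since the ages did not overlap, leaving out 1 library or pairing by replicate number could not reverse it. With 20 kb flanks it was 13.4 percentage points at Trim2, 48.4 at Gm20203, 87.3 at Gm26141 and 30.3 at Gm47319, and with 100 kb flanks 7.60, 14.8, 30.8 and 8.04, since the share depends on how much flank the window holds. With each list shortened to its 7353 strongest peaks it became 3.50 at Trim2, 3.34 at Ubash3b, 6.78 at Gm20203, 29.6 at Gm26141 and 7.59 at Gm47319. The mean number of peaks in the 5 windows, 168 higher in adult libraries, was 57.7 higher with peaks within 1000 bp merged, 157 at a q-value under 0.005 and 15.3 with the strongest peaks. With 1 library left out at a time the Trim2 difference ranged from 9.11 to 11.3, that at Gm26141 from 45.2 to 50.5, and that in peak number from 163 to 174. The authors' sites higher in adult cells numbered 88 at an adjusted p under 0.005, 79 with 20 kb and 129 with 100 kb flanks, against 102. Deviations of same-numbered libraries had correlations over gene windows of 0.222, -0.312 and -0.300 for numbers 1, 2 and 3. Those of differently numbered libraries ranged from -0.282 to 0.305. Values of like size in both sets cannot show whether the numbers pair the samples. With a replicate block the Trim2 difference was again 10.5, from 8.69 to 13.6 over the 3 pairs, by construction. Read depth is not known, so the absence of a neonatal peak does not show absence of the mark.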

Other observations

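In the Gm26141 window the number of adult peaks ran against their covered length: replicate 1 had 39 peaks over 43.4 kb, replicate 2 had 30 over 47.3 kb and replicate 3 had 23 over 54.0 kb. The mark inside Ppp1r16b was also divided among genes by the nearest-start annotation. In adult replicate 1 the window's peaks were assigned to Gm26141 (17), Fam83d (15) and Ppp1r16b (7), and in adult replicate 3 to Gm26141 (4), Fam83d (6) and Ppp1r16b (13). Some Fam83d peaks of adult replicate 1, from position 158767251 on, lay beyond the end of Ppp1r16b, at or near Fam83d itself. From adult replicate 1 to 3, peaks assigned to Gm26141 and Fam83d thus became fewer while covered length rose. Those assigned to Ppp1r16b became more numerous.

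Ranked by p-value, the strongest adult peak of a window was mostly not the one over the site with the largest fold change. At Trim2 the strongest peak of adult replicates 2 and 3 (folds of 16.4 and 14.1) lay farther upstream in the same intron, where the site at 84291877 to 84292276 had a log2 fold change of 2.64 in the authors' deposited table and neonatal replicate 2 had a peak. In adult replicate 1 it lay at the start at position 84259779, with a fold of 15.9. At Gm26141 the strongest adult peak, with folds of 14.5, 16.4 and 18.1, covered the gene itself, and the site there (158740133 to 158740532) had a log2 fold change of 5.03 and the smaller adjusted p of 1.88e-16 in the authors' deposited table. The chosen site lay under the strongest peak at Gm20203 in adult replicate 2, and in no other library or window.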
